A study of Homo sapiens with 3 samples.

Results

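MicroRNAs encoded inside the HOX gene clusters were examined in small RNA sequencing data of 3 cancer-derived cell lines. The set was chosen by name and held 7 of the 2588 mature miRNAs listed, namely hsa-miR-10a-5p, hsa-miR-10a-3p, hsa-miR-10b-5p, hsa-miR-10b-3p, hsa-miR-196a-5p, hsa-miR-196b-5p and hsa-miR-615-3p, whose species prefix is left out from here on. C643 cells come from a thyroid cancer, ES-2 cells from an ovarian cancer and Huh-7 cells from a liver cancer, and the study measured their miRNAs in the parental state, before MIR21 was deleted in derived cells. The lines received no agent and were harvested 48 hours after seeding, and each was represented by 1 library, so the libraries carry no replicate error and no difference between lines could be tested against one.

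HOX genes encode homeodomain transcription factors that give cells their position along the body axis, and their order along each of the clusters HOXA to HOXD matches the order of their expression domains. The clusters arose by duplication. Paralogs at matching positions are the miR-10 hairpins, beside the genes of paralog group 4, and the miR-196 hairpins, near those of groups 9 and 10. Among the annotated hairpins, that of miR-615 lies in HOXC only. Mature miRNAs guide Argonaute proteins to mRNAs mainly through the seed, bases 2 to 8. miR-196 is known for directing cleavage of the HOXB8 mRNA, and miR-10b for its link to invasion of breast cancer cells. Adult tissues and tumors keep parts of the HOX code of their origin.

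The mature sequences are shown because seeds group members by the mRNA sites they match, and near-identity bears on which are separable by reads. Of the 7 members, 6 had a mature entry in RefSeq (GRCh38.p14) and are given 5′ to 3′ with the seed in capitals. miR-10b-5p is named only.
miR-10a-5p: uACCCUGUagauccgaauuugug
miR-10a-3p: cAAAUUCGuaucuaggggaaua
miR-10b-3p: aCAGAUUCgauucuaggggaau
miR-196a-5p: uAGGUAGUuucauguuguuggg
miR-196b-5p: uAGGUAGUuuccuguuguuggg
miR-615-3p: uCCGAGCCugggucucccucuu

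miR-196a-5p and miR-196b-5p share the seed AGGUAGU and differ by 1 base, A12C, with positions counted from 1 at the 5′ end and the base of miR-196a-5p first. Among the 6 members printed, each of the other seeds occurs 1 time, and the seed of miR-10b-5p, which is not printed, was not compared. miR-10a-5p and miR-10b-5p are close paralogs too, and reads of a paralog that carried a sequencing error at a distinguishing base were not separable here. The relatives of miR-10 outside the HOX clusters, miR-99a-5p, miR-99b-5p and miR-100-5p, have the seed ACCCGUA, which is not that of miR-10a-5p.

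In GENCODE release 29 (GRCh38, the build the submitters' processing notes name as hg38) the precursors lie in all 4 clusters. MIR196B, in HOXA, is on chromosome 7 at 27169480 to 27169563 on the minus strand. It lies in an exon of a non-coding HOXA9 transcript and 1027 bases from HOXA10. In HOXB, on chromosome 17, MIR10A at 48579838 to 48579947 lies in the 5′ UTR exon of HOXB4 and in an intron of HOXB3, and MIR196A1 at 48632490 to 48632559 lies in an intron of HOXB7, 6133 bases from HOXB9. In HOXC, on chromosome 12, MIR196A2 at 53991738 to 53991847 lies in an intron of HOXC6 between HOXC10 and HOXC9, and MIR615 at 54033950 to 54034045 lies in an intron of HOXC5. In HOXD, MIR10B on chromosome 2 at 176150303 to 176150412 lies in an intron of HOXD3, 809 bases upstream of HOXD4. miR-196a-5p is thus encoded in both HOXB and HOXC, and every other member in a single cluster.

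Recovered from the deposited values, the C643 library held 8183100 reads on listed miRNAs, that of ES-2 1663181 and that of Huh-7 2173587. Shares are reads of a miRNA over all reads of its own library, with Wilson 95% intervals that cover counting error only. A count of 0 still permits 3 reads, a share of 0.000138% for Huh-7, 0.00018% for ES-2 and 3.67e-05% for C643. A list of 4 hepatocyte miRNAs held 0.0207% of reads in C643 and 0.0132% in ES-2 but 15.5% in Huh-7, and its defining member miR-122-5p had 288469 reads there, against 468 in C643 and 6 in ES-2. Lists of 6 blood cell and 3 muscle miRNAs held at most 0.127% and 0.00129% of any library, with miR-144-3p and miR-206 at 0 in each. On the blood list, miR-486-5p had 2766 reads in Huh-7 (0.127%), and miR-142-3p had 542 in ES-2 (0.0326%) and 0 elsewhere. The part of these lists in the results was not tested. No miRNA list was taken as defining for thyroid or ovarian cancer cells.

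Summed over the 7 members, HOX-cluster miRNAs took a similar share of each library. The sum was highest in Huh-7 with 1.40% (95% CI 1.385 to 1.416), from 30434 reads. ES-2 followed with 1.36% (1.339 to 1.374), from 22557 reads, and C643 with 1.27% (1.266 to 1.282), from 104247 reads. By share Huh-7 exceeded C643 1.10-fold (1.09 to 1.11) and ES-2 1.03-fold (1.015 to 1.050). These differences are larger than counting error and have no replicate to be set against. When the mean over the loci of each miRNA was taken in place of their sum, the order changed and Huh-7 came last with 1.09%, against 1.47% in C643 and 1.58% in ES-2.

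The mix of members that made up this share was not the same in the lines. Products of HOXB that come from no other cluster, the miR-10a arms, were 84.0% of the members' reads for C643 and 76.3% for ES-2, but 0.0657% for Huh-7. The miR-10b arms of HOXD made up 31.4% for Huh-7, 18.8% for ES-2 and 4.63% for C643. miR-196a-5p, from HOXB or HOXC, made up 58.4%, 1.54% and 8.96% in the same order. miR-615-3p of HOXC stayed between 1.96% and 5.40%, and miR-196b-5p of HOXA between 0.435% and 4.73%. In bulk RNA, fewer cells with a miRNA and less of it per cell cannot be told apart.

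**Figure D1:**
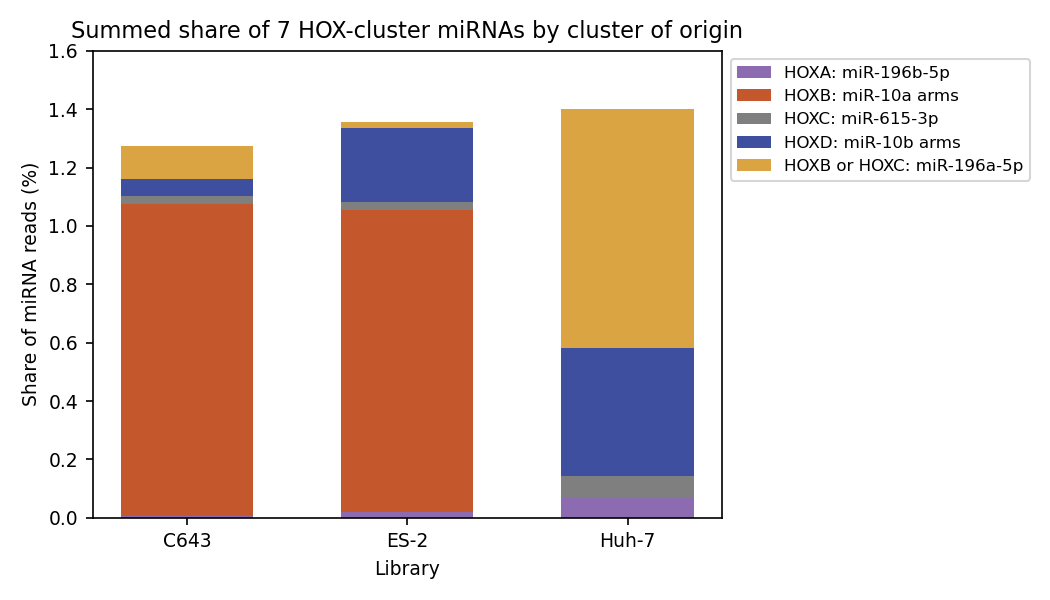
Share of miRNA reads (percent, axis from 0) held by the 7 HOX-cluster miRNAs in 1 library of each line, stacked by the cluster that encodes them. The bars reach 1.27%, 1.36% and 1.40%, and miR-10a fills most of the bar in C643 and ES-2, miR-196a-5p and miR-10b most of it in Huh-7.

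miR-10a-5p, the leading arm of the HOXB4-linked hairpin, had 20 reads for Huh-7 (0.00092%, 95% CI 0.000596 to 0.00142), 17083 for ES-2 (1.03%, 1.012 to 1.043) and 86237 for C643 (1.05%, 1.047 to 1.061). Its rank among all miRNAs was 17 for C643, 16 for ES-2 and 397 for Huh-7, so C643 and ES-2 were high and Huh-7 stood apart from both. By share, ES-2 exceeded Huh-7 1116-fold (95% CI 720 to 1731) and C643 exceeded Huh-7 1145-fold (739 to 1775). C643 and ES-2 differed 1.03-fold (1.009 to 1.043), with C643 higher by share and ES-2 higher on the deposited scale, where the log2 difference of C643 minus ES-2 was -0.23 in place of 0.04, and with the median miRNA set to 0, where it was -0.19.

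miR-10a-3p, cut from the other arm of the same hairpin, repeated this order at a lower level. It had 0 reads for Huh-7, 121 for ES-2 (0.00728%) and 1337 for C643 (0.0163%). Set against the limit of 3 reads in Huh-7, its share was at least 118-fold higher in C643. For ES-2 the same bound gave at least 52.7-fold. Between the lines that had it, C643 exceeded ES-2 2.25-fold by share (1.86 to 2.71).

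miR-10b-5p, the leading arm of the HOXD4-linked hairpin, had 9490 reads for Huh-7 (0.437%, 95% CI 0.428 to 0.445), 4209 for ES-2 (0.253%, 0.246 to 0.261) and 4769 for C643 (0.0583%, 0.0566 to 0.0600). Its order by share was the opposite of that of miR-10a-5p, with Huh-7 highest and C643 lowest. For miR-10a-5p, though, C643 and ES-2 differed only 1.03-fold, in a direction that turned on the deposited scale. miR-10b-5p was well detected in each line, at rank 33 for Huh-7, 34 for ES-2 and 83 for C643. By share Huh-7 exceeded C643 7.49-fold (7.24 to 7.76), and ES-2 exceeded C643 4.34-fold (4.17 to 4.53). Huh-7 exceeded ES-2 1.73-fold (1.66 to 1.79), a log2 difference of -0.79 for ES-2 minus Huh-7 that turned to 0.13 on the deposited scale and to 0.22 with the median miRNA set to 0, so which of these lines was higher rested on the scaling.

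miR-10b-3p had 66 reads for Huh-7 (0.00304%), 32 for ES-2 (0.00192%) and 62 for C643 (0.000758%). Its order by share was that of miR-10b-5p. Huh-7 exceeded C643 4.01-fold (2.83 to 5.67) and ES-2 exceeded C643 2.54-fold (1.66 to 3.89). Huh-7 and ES-2 differed 1.58-fold, with an interval of 1.03 to 2.41, and this direction too turned on the deposited scale, where the log2 difference of ES-2 minus Huh-7 was 0.25, and with the median miRNA set to 0, where it was 0.38.

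miR-196a-5p, encoded by hairpins in HOXB and HOXC, had 17775 reads for Huh-7 (0.818%, 95% CI 0.806 to 0.830), 348 for ES-2 (0.0209%, 0.0188 to 0.0232) and 9341 for C643 (0.114%, 0.112 to 0.116). With its loci summed it was the member with the most reads in Huh-7, where it ranked 21, and was at rank 114 in ES-2. By share Huh-7 exceeded ES-2 39.1-fold (35.1 to 43.5) and C643 7.16-fold (6.99 to 7.35), and C643 exceeded ES-2 5.46-fold (4.90 to 6.07).

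miR-196b-5p, from HOXA, had 1441 reads for Huh-7 (0.0663%, 95% CI 0.0630 to 0.0698), 307 for ES-2 (0.0185%, 0.0165 to 0.0206) and 453 for C643 (0.00554%, 0.00505 to 0.00607). Huh-7 was highest here as for miR-196a-5p, but C643 and ES-2 stood in the opposite order. By share Huh-7 exceeded C643 11.98-fold (10.8 to 13.3) and ES-2 3.59-fold (3.175 to 4.063), and ES-2 exceeded C643 3.33-fold (2.88 to 3.85).

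miR-615-3p, from the HOXC5 intron, varied least of the 5p or 3p arms that lead their hairpin. It had 1642 reads for Huh-7 (0.0755%, 95% CI 0.0720 to 0.0793), 457 for ES-2 (0.0275%, 0.0251 to 0.0301) and 2048 for C643 (0.0250%, 0.0240 to 0.0261). By share C643 and ES-2 could not be separated, with a ratio of ES-2 over C643 of 1.10 and an interval of 0.992 to 1.22, while on the deposited scale the log2 difference of C643 minus ES-2 was -0.40 in place of -0.13. By share Huh-7 exceeded C643 3.02-fold (2.83 to 3.22) and ES-2 2.75-fold (2.48 to 3.05). On the deposited scale these gaps were smaller, at -0.94 for C643 minus Huh-7 in place of -1.59 and -0.54 for ES-2 minus Huh-7 in place of -1.46.

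**Figure D2:**
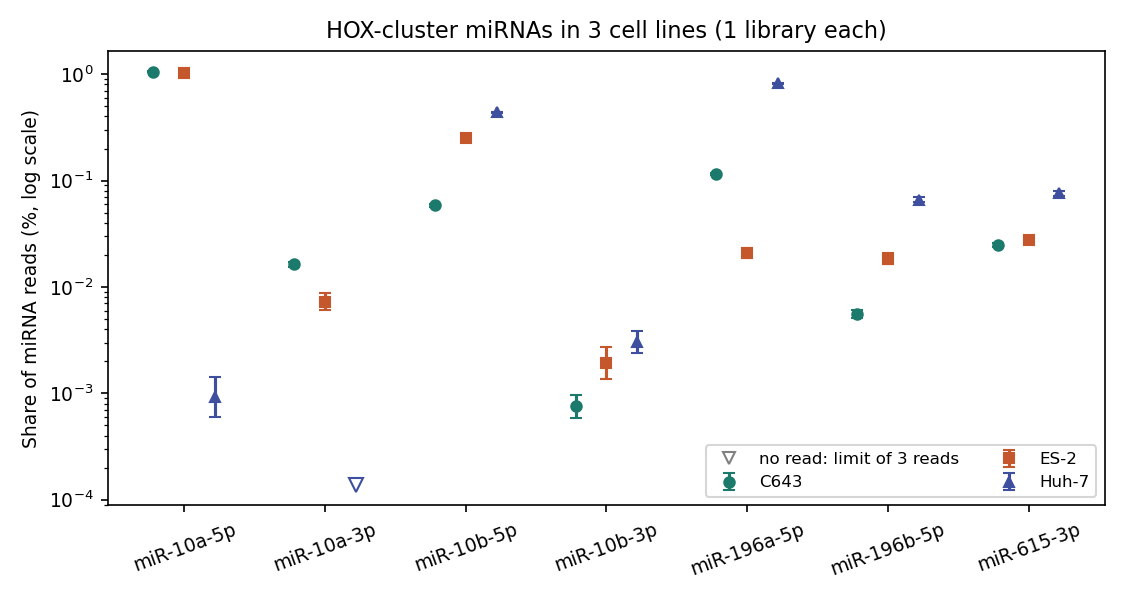
Share of miRNA reads (percent, log scale) of each HOX-cluster miRNA, 1 point per library with its Wilson 95% interval, and an open triangle at the limit of 3 reads where no read was found. The miR-10a arms are high in C643 and ES-2, while miR-196a-5p, miR-196b-5p and miR-615-3p are highest in Huh-7, as is miR-10b by share but not on the deposited scale, where ES-2 is above Huh-7.

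Within a line the members spanned wide ranges. In C643 they ran from 1.05% for miR-10a-5p to 0.000758% for miR-10b-3p, and in ES-2 from 1.03% for miR-10a-5p to 0.00192% for miR-10b-3p. In Huh-7 miR-196a-5p led with 0.818%, followed by miR-10b-5p with 0.437%, an order that rests on summing the loci of miR-196a-5p and turns with the mean over loci. For scale, miR-21-5p, the most read miRNA of each library, had 27.2 times the reads of miR-10a-5p in C643, 27.5 times in ES-2 and 40.7 times those of miR-196a-5p in Huh-7. In ES-2, miR-196a-5p and miR-196b-5p were neighbors in order that could not be separated, at 348 and 307 reads.

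The pairs of libraries were next compared across all miRNAs, on a log2 scale of reads per 1000000 with 1 added, where folds of rarely read miRNAs come out too small. Included were miRNAs at 10 or more per 1000000 in either library of a pair, and a log2 difference of 2 or beyond was taken as 4-fold. All 7 members passed this filter in each pair. Between ES-2 and Huh-7, whose values stand in the same table, 56.3% of the 437 miRNAs compared reached 4-fold, 14.9% with ES-2 as the higher library and 41.4% with Huh-7. Of the members, both arms of miR-10a were higher in ES-2, at 9.98 and 6.20 on the log2 scale, and miR-196a-5p was higher in Huh-7, at -5.28. The 6.20 of miR-10a-3p is set against 0 reads in Huh-7 and became 3.05 when 10 was added in place of 1. The remaining 4 lay between -0.63 and -1.84. The median of the members was -0.79 and that of all 437 miRNAs was -1.65, so by share the bulk of miRNAs was lower in ES-2.

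Against the median ratio of miRNAs at 10 or more per 1000000 in both libraries, -1.01 for ES-2 minus Huh-7, miR-196a-5p, miR-196b-5p and miR-615-3p were still lower in ES-2 and the miR-10a arms still higher. The split of all calls moved with the scaling, from 26.4% higher in ES-2 by share to 41.3% on the deposited scale and 38.9% with that median set to 0. Without the 1 added, each log2 ratio of this pair is 0.92 higher on the deposited scale than by share. With 1 added, rarely read miRNAs departed from this shift, and miR-10a-3p went from 6.20 to 6.41. The members counted as 4-fold were 2 and 1 on each of these scales. An exact binomial test of the reads with Benjamini-Hochberg adjustment, which bears on this pair of libraries rather than on the lines, called 100 miRNAs toward ES-2 (22.9%) and 305 toward Huh-7 (69.8%). It called each of the 7 members, 2 toward ES-2 and 5 toward Huh-7.

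C643 was set beside the other lines as a description only, since its values stand in a table of its own and could carry another normalization. For small RNA libraries the paper names a NEXTflex kit or Novogene and does not say which line took which route. Preparation could therefore differ between libraries too, which was not tested. In the pair with ES-2, 29% of the 348 miRNAs compared reached 4-fold, 19.5% toward C643 and 9.48% toward ES-2. Of the members only miR-196a-5p reached this in C643, at 2.44, and only miR-10b-5p in ES-2, at -2.12. The member median was -0.13 beside 0.39 for all miRNAs. In the pair with Huh-7, 52.9% of the 442 compared reached it, 17.4% toward C643 and 35.5% toward Huh-7. The miR-10a arms were higher in C643, at 10.01 and 7.36 (4.12 for miR-10a-3p when 10 was added), while miR-10b-5p (-2.90), miR-196a-5p (-2.84) and miR-196b-5p (-3.56) were higher in Huh-7. The member median was -1.87 beside -1.04 for all miRNAs. Without the 1 added, each log2 ratio of C643 over ES-2 is shifted by -0.27 on the deposited scale, and each of C643 over Huh-7 is 0.65 higher. With 1 added, miR-10a-3p went from 7.36 to 7.30 in the pair with Huh-7. The share of these calls higher in C643 was 32.9%, which became 47.4% on the deposited scale.

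**Figure D3:**
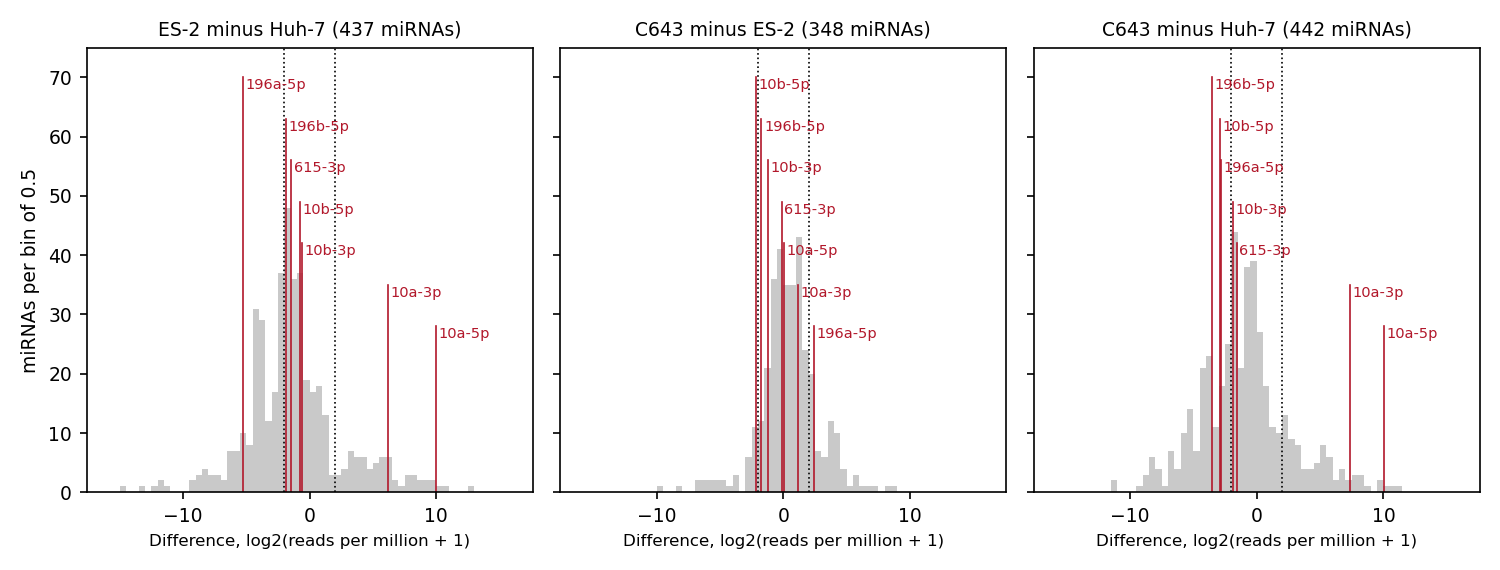
Histograms of the difference between libraries on the log2 scale of reads per 1000000 with 1 added, for the miRNAs at 10 or more per 1000000 in at least 1 library of each pair. Red lines mark the HOX-cluster miRNAs and dotted lines a difference of 2, and the miR-10a arms lie far to the right in both pairs with Huh-7 (9.98 and 6.20 against ES-2).

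The paralogs were compared within each library, where no scaling enters, though library preparation could still differ between lines. The ratio of miR-10a-5p to miR-10b-5p was 0.00211 for Huh-7 (0.00136 to 0.00327), 4.06 for ES-2 (3.924 to 4.198) and 18.1 for C643 (95% CI 17.6 to 18.6). In Huh-7 miR-10a-5p was thus 0.210% of the reads of the pair, and how many of its 20 reads came from misread miR-10b-5p was not tested. The 3p arms, which differ in their seeds, gave 21.6 in C643 (16.7 to 27.8) and 3.78 in ES-2 (2.56 to 5.58), while the Huh-7 library had 0 reads of miR-10a-3p beside 66 of miR-10b-3p. The ratio of the 3p arms therefore lay within counting error of that of the 5p arms in C643 and ES-2. The miR-196 paralogs gave 12.3 for Huh-7 (11.7 to 13.0), 1.13 for ES-2 (0.972 to 1.32) and 20.6 for C643 (18.8 to 22.7), so miR-196a-5p led in C643 and Huh-7 and could not be separated from miR-196b-5p in ES-2. With the mean over the loci of miR-196a-5p in place of their sum the ES-2 ratio was 0.567, which put miR-196b-5p ahead there.

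The paralogous 5p arms were also taken as sums. The miR-196 5p arms share a seed and can bind the same seed matches, while the seed of miR-10b-5p was not compared. The miR-196 5p arms together held 0.884% of reads for Huh-7, 0.0394% for ES-2 and 0.120% for C643, which put Huh-7 22.4-fold above ES-2 (20.8 to 24.3) and 7.39-fold above C643 (7.21 to 7.57). The miR-10 5p arms together held 0.438%, 1.28% and 1.11% in that order. The sum for miR-10 in ES-2 was therefore 2.93 times that in Huh-7 (2.856 to 2.998), beside 1116-fold for miR-10a-5p alone, and in Huh-7 nearly all of this sum was miR-10b-5p.

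The arms of each hairpin were read very unequally. miR-10a-5p exceeded miR-10a-3p 64.5-fold in C643 (61.1 to 68.1) and 141-fold in ES-2 (118 to 169). miR-10b-5p exceeded miR-10b-3p 76.9-fold in C643 (59.9 to 98.8), 132-fold in ES-2 (92.9 to 186) and 143.8-fold in Huh-7 (113 to 183). In each of C643 and ES-2 the miR-10a and miR-10b hairpins gave ratios within counting error of each other, at 0.839 (0.649 to 1.08) and 1.07 (0.726 to 1.59) for miR-10a over miR-10b.

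Both hairpins leaned further to the 5p arm in ES-2 than in C643, by 2.19-fold for miR-10a (1.82 to 2.64) and 1.71-fold for miR-10b (1.11 to 2.63). Over 53 precursors with at least 30 reads on each arm in both libraries the median shift was 1.55-fold in the same direction, and 16 and 23 precursors, these hairpins included, shifted at least as far as miR-10a and miR-10b. For miR-10b the lean was 1.87-fold greater in Huh-7 than in C643 (1.32 to 2.65), where 19 of 57 precursors, itself included, shifted as far or farther. Between Huh-7 and ES-2 the ratio for miR-10b differed 1.09-fold, with an interval of 0.716 to 1.67.

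For the other hairpins with both arms listed, nearly all reads came from a single arm. miR-196a-3p and miR-196b-3p had 0 reads in each library. miR-615-5p was found with 2 reads in the Huh-7 library and 0 elsewhere, and miR-615-3p of that library exceeded it 821-fold (205 to 3285). miR-196a-1-3p, the 3p product of the HOXB hairpin, is not among the names in the tables, so the arms of that hairpin were not compared. Of the hairpins with both arms listed, miR-615 was read mainly from its 3p arm and the others from their 5p arm.

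**Figure D4:**
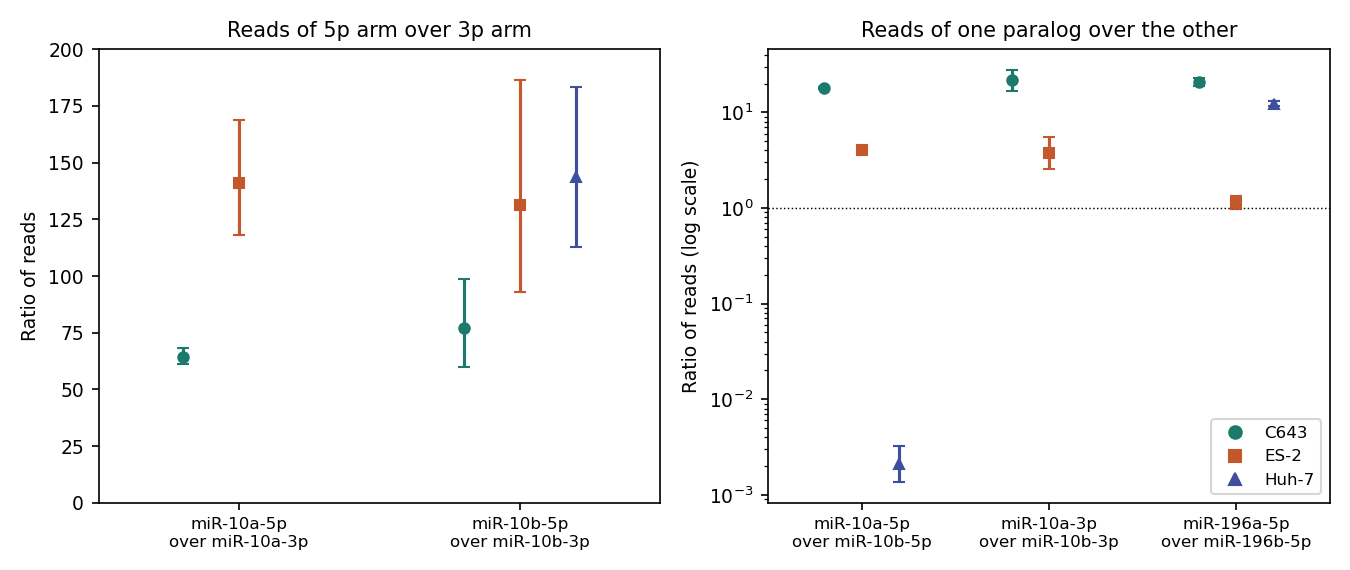
Ratios of reads within a library with 95% counting intervals, on the left the 5p arm over the 3p arm (linear axis) and on the right one paralog over the other (log axis), with no point where an arm had 0 reads. The arm ratios of miR-10a and miR-10b lie near 64.5 and 76.9 in C643 and at 141 and 132 in ES-2, and the ratio of miR-10a-5p to miR-10b-5p drops to 0.00211 in Huh-7.

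The locus of origin of miR-196a-5p was examined because its mature sequence is encoded in HOXB and in HOXC. The hairpins differ just after the mature end, and the sequence at each locus is shown with the next 3 bases in capitals.
MIR196A1 (HOXB): uagguaguuucauguuguugggCCU
MIR196A2 (HOXC): uagguaguuucauguuguugggAUU
At the chromosome 12 and chromosome 17 loci the tables listed 9891 and 7884 reads for Huh-7, 201 and 147 for ES-2, and 5101 and 4240 for C643. The chromosome 12 locus, in HOXC, thus held 55.6% of miR-196a-5p reads for Huh-7 (95% CI 54.9 to 56.4), 57.8% for ES-2 (52.5 to 62.8) and 54.6% for C643 (53.6 to 55.6), above an even split in each library.

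Most miRNAs with 2 listed loci were split more evenly. With at least 200 reads required, the leading locus held a median of 51.0% of reads over 26 other miRNAs in C643, 50.9% over 19 in ES-2 and 51.5% over 21 in Huh-7. Of these, 4 for Huh-7, 1 for ES-2 and 6 for C643 were as uneven as miR-196a-5p or more so. How reads that match both loci were placed is not given in the sources used here, so the split is a description of the listed counts and not of the activity of HOXB or HOXC. miR-10a-5p, also encoded in HOXB, had 20 reads in Huh-7 while 7884 reads of miR-196a-5p were listed at HOXB.

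**Figure D5:**
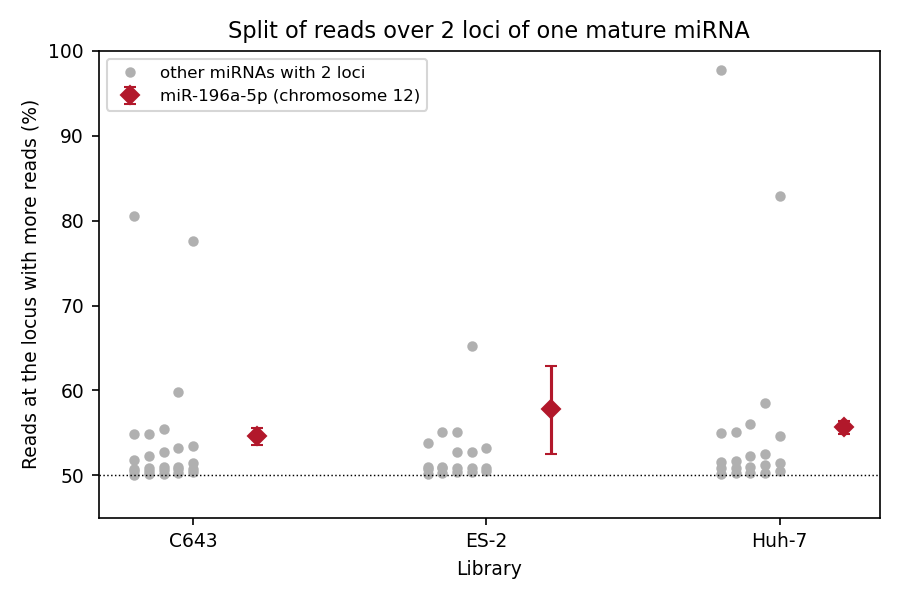
Percent of reads at the locus with more reads, for mature miRNAs with 2 listed loci and at least 200 reads in a library. miR-196a-5p (diamonds with Wilson 95% intervals) had 54.6%, 57.8% and 55.6% at chromosome 12, above the medians of the other miRNAs near 51%.

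GENCODE places 2 further miRNA genes between the outermost HOX genes. miR-3185, from HOXB near HOXB13, had 0 reads in each library. miR-7704, whose hairpin overlaps a coding exon of HOXD1, had 4 reads in C643 and 0 in the other lines. Neither was detectable at a level that could be compared between lines.

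The relatives of miR-10 outside the HOX clusters were set beside it. miR-100-5p held 0.0399% of reads for Huh-7, 11.2% for ES-2 and 4.07% for C643, lowest in Huh-7 as for miR-10a-5p. miR-99a-5p held 0.345%, 0.0799% and 0.00546% in that order, with Huh-7 highest and C643 lowest, the order of miR-10b-5p by share but not on the deposited scale. miR-99b-5p held 0.811%, 0.213% and 0.788% in that order, with ES-2 lowest, which is the order of neither miR-10 5p arm.

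The miRNAs of other precursors most like each member were sought over the 3 libraries, by the root mean square difference of log2 shares centred on each miRNA's own mean, among those with at least 1000 reads in 1 library. A member had to reach the same number, which left out miR-10b-3p and kept the other 6. With 3 points, which share the depth and composition of their libraries, such likeness is a description. miR-10a-5p lay nearest to let-7i-5p (0.32), miR-199b-3p (0.32) and miR-125b-1-3p (0.68) of 163 candidates, each with at most 31 reads in Huh-7. For miR-10a-3p, with 0 reads in Huh-7, the distance rests on the 3 reads assumed there, and on that footing the nearest were miR-98-5p (0.06), a let-7 family member, miR-222-5p (0.31) and miR-767-5p (0.42), the last also at 0 reads in Huh-7. miR-10b-5p lay nearest to miR-17-5p (0.15), miR-454-3p (0.19) and miR-20a-5p (0.32), of which miR-17-5p held 0.139% for Huh-7, 0.101% for ES-2 and 0.0229% for C643.

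miR-196a-5p had no close match, its nearest being miR-146a-5p (0.58), miR-450b-5p (0.78) and miR-23b-3p (0.90) of 164 candidates. miR-196b-5p lay nearest to miR-455-3p (0.38), the HOXD product miR-10b-5p (0.44) and miR-182-5p (0.49). miR-615-3p lay nearest to miR-128-3p (0.10), miR-423-5p (0.12) and miR-423-3p (0.15). Among these 6 members, miR-10b-5p and miR-196b-5p were the closest pair of different hairpins, at 0.44, and miR-10a-5p and miR-196a-5p the farthest apart, at 6.77. The seed-sharing paralogs miR-196a-5p and miR-196b-5p lay 1.82 apart, and 66 candidates were closer to miR-196a-5p.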

How the data were processed

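Small RNA of 3 parental cell lines was measured in 1 library each, prepared from total RNA extracted with TRIZOL and sequenced on an Illumina instrument. The paper gives library preparation with a NEXTflex kit or at Novogene, and sequencing in Dresden or at Novogene, without assigning lines. The submitters' processing notes name cutadapt 1.14, Bowtie2 2.3.3, SAMtools 1.5, featureCounts 1.5.3, edgeR 3.18.1 and hg38, with no roles or settings. The miRNA annotation release and the placement of reads that match several loci are not given in the sources used here.

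The deposited values are a signal, named CPM by the authors, that gives reads per mature miRNA locus times 1 factor per library. They do not sum to 1000000, the column totals being 612015 for Huh-7, 1154552 for ES-2 and 959302 for C643, so shares of the column were used. C643 stands in a table of its own. Every nonzero value was a whole multiple of the smallest in its column (100% within 0.02), which gave whole reads. PCR copies were not told apart from molecules, so intervals cover counting error only.

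Reads of all loci of a mature miRNA were added and divided by the library total. Ratios carry log-normal 95% counting intervals, and a library with 0 reads was set to 3 reads for a lower bound. The mature sequences are 21 to 23 bases long, so reads were compared between miRNAs without a length correction. Scripts used Python 3.11.15, pandas 2.3.3, numpy 2.4.6, scipy 1.17.1 and matplotlib 3.10.9. The exact binomial test and the 4-fold call were tested on simulated reads of ES-2 and Huh-7.

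The members and lists were chosen with earlier results of these data known. Named were the members, the other arms of their hairpins, other miRNAs annotated between the outermost HOX genes, miR-99a-5p, miR-99b-5p, miR-100-5p, miR-21-5p and the 3 miRNAs most like each member with 1000 or more reads in 1 library. The marker miRNAs were named as defining members, as those at 0, or as the most read of the blood list in ES-2 or Huh-7. Alternatives were other denominators, the mean over loci, all arms, other scales, pseudocounts, filters and fold thresholds, and the read test.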

Additional observations from a re-analysis of the deposited data

How the results depend on the processing

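No paired analysis was possible because there was 1 library a line, with no replicate numbers. No member difference of 4-fold or more changed direction under another scale, pseudocount or treatment of loci. The smaller differences of miR-10b-5p and miR-10b-3p between ES-2 and Huh-7 and of miR-10a-5p between C643 and ES-2 did, on the deposited scale and with the median ratio set to 0, and the read test, made on shares, had called both miR-10b arms toward Huh-7. Few reads stood behind miR-10a-3p with 0 and miR-10a-5p with 20 in Huh-7 and miR-10b-3p with 32 in ES-2, and with a pseudocount of 10 the difference of miR-10a-3p from Huh-7 went from 6.20 to 3.05 for ES-2 and from 7.36 to 4.12 for C643. For changes between scales the cause was not tested, and the other changes follow from what each alternative counts.

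Without miR-21-5p in the denominator the 7 members took 2.10% for Huh-7, 1.89% for ES-2 and 1.78% for C643, and with the mean over loci 1.09%, 1.58% and 1.47%. Adding the other listed arms, or keeping only miRNAs at a deposited value of 10 or more, moved these sums by less than counting error. With the mean over loci the ratio of miR-196a-5p to miR-196b-5p was 6.17 for Huh-7, 0.567 for ES-2 and 10.3 for C643.

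Of the members, the count higher in Huh-7 than in ES-2 was 3 at 2-fold and 5 by the read test, against 1 at 4-fold. Over all 437 miRNAs compared, these counts were 265, 305 and 181. For C643 against ES-2, 2 members were higher in C643 and 3 in ES-2 at 2-fold, and 0 in either at 8-fold. Over all 348 miRNAs, they were 135 and 66 at 2-fold and 41 and 16 at 8-fold. For C643 against Huh-7, 5 members were higher in Huh-7 at 2-fold and 1 at 8-fold, against 3 at 4-fold. Over all 442 miRNAs, these were 222, 114 and 157. The other scales and the pseudocount of 10 changed no count of members by more than 1.5 times.

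Over all miRNAs, the 4-fold counts by share were 65 toward ES-2 and 181 toward Huh-7, 68 toward C643 and 33 toward ES-2, and 77 toward C643 and 157 toward Huh-7. For ES-2 against Huh-7, the count higher in Huh-7 was 108 on the deposited scale, 95 when 10 was added in place of 1, and 285 when no miRNA was left out. A filter at 100 per 1000000 left 40 and 73, and the read test called 100 and 305. For C643 against ES-2 the counts were 27 and 20 with a pseudocount of 10, 135 and 66 at 2-fold, 41 and 16 at 8-fold, 139 and 76 with no miRNA left out, and 23 and 14 with the filter at 100. For C643 against Huh-7, 100 were higher in Huh-7 on the deposited scale and 99 with a pseudocount of 10. With no miRNA left out they came to 129 and 266, and to 47 and 73 with the filter at 100.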
